A study of Homo sapiens with 18 samples.

Results

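Posterior neural ectoderm is a cell population made in culture as the starting point of hindbrain tissue, and here it was carried into a medium designed to make forebrain. The response was measured as the difference in mRNA between 2 libraries collected at day 4 (pNE_T) and 2 libraries of the day-2 starting population (pNE). All cells were of H1, an established, genetically unmodified human pluripotent stem cell line, so a single genetic background was sampled. A gene entered the comparison when 2 or more of these 4 libraries gave it 1 TPM or more, as did 14759 of the 37550 rows of the deposited table. TPM counts transcripts of a gene relative to all transcripts of the library, scaled by their length, and genes were compared on log2(TPM + 1).

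The series holds 18 poly-A RNA libraries in 9 groups of 2. Before day 2, all differentiating cells spent day 1 in a definitive ectoderm medium with A8301 at 1 µM (a TGF-beta receptor inhibitor), trametinib at 250 nM (a MEK inhibitor), C59 at 1 µM (which stops WNT secretion) and LDN193189 at 100 nM (a BMP receptor inhibitor). On day 2 the pNE cells received TTNPB (50 nM), which activates retinoic acid receptors, together with FGF2 (20 ng/mL), the WNT pathway inhibitor XAV939 (1 µM), A8301 (1 µM), LDN193189 (100 nM) and thiazovivin, which aids survival after passaging. The forebrain medium on day 3 held XAV939 at 1 µM, LDN193189 at 100 nM and FGF2 at 20 ng/mL, and the rest of its recipe is not given in the sources used here. TTNPB and A8301 were not among the agents named for that day. Other groups serve as references: anterior neural ectoderm at day 2 (aNE, made with C59 at 1 µM in place of TTNPB, FGF2 and XAV939) and after the same forebrain medium (aNE_T), and pNE-derived cells in a midbrain (pNE_M) or hindbrain medium (pNE_H) at day 4. Day-2 cultures were plated at 37500 cells per cm2, day-4 cultures of posterior origin at 150000 and day-4 cultures of anterior origin at 75000. Day, medium and plating density changed together between pNE and pNE_T, so their shares in any difference cannot be told apart. Nothing in the labels says whether the 2 replicates of a group were separate cultures, and p-values then measure only the spread between these libraries.

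The neural plate acquires its head-to-tail identity early: OTX2 marks its anterior part, GBX2 the part behind it, and the HOX genes the hindbrain and spinal cord in overlapping domains. Retinoic acid, which binds RAR-RXR receptors at response elements in DNA, switches on the 3′ members of the HOX clusters, while CYP26 enzymes break it down. Forebrain protocols remove or block posteriorising signals such as retinoic acid and WNT, and cells leaving pluripotency exchange E-cadherin for N-cadherin as they become neural.

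Within the 4 libraries, between 19450 and 20546 genes were above 0 TPM, and mitochondrial transcripts took 2.96% and 3.74% of the total in pNE and 2.31% and 3.04% in pNE_T. Over the tested genes, which are not independent of each other, Pearson's r between replicates was 0.983 for pNE and 0.982 for pNE_T, higher than with any library of another group. The depth in reads is not known, since TPM values do not carry it. Neural ectoderm markers differed in level: SOX2 lay at 181 and 211 TPM in pNE and 239 and 234 TPM in pNE_T. SOX1 was low in all 4 libraries and PAX6 was low in pNE, with values given below. Markers of other cell types were mixed: SOX10, FOXD3, TFAP2A, TFAP2B (neural crest), TBXT (primitive streak), SOX17 (endoderm), PECAM1 (endothelium) and COL3A1 (mesenchyme) did not reach 1 TPM in 2 of the 4 libraries. Others were present, such as CDH5 (endothelium) at 22.8 and 23.3 TPM and COL1A2 (mesenchyme) at 301 and 348 TPM in pNE_T. In such bulk samples, fewer cells of a type and less RNA per cell cannot be told apart.

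By day 4, a called change was found for 1740 genes. A call means a Benjamini-Hochberg adjusted p under 0.05 in limma and a log2 change of at least 1, and every change, rise, fall or difference given without TPM is on the log2(TPM + 1) scale. A gene below 1 TPM in both libraries of a group entered only through the other group, so its direction was favoured by the filter, and such genes are named beside most of the lists that hold them. Of the called genes, 802 were higher (5.43% of the tested genes) and 938 lower (6.36%), and the median change of all genes was -0.028. The 15 largest rises included genes of the posterior neural axis (NR2F1, HOXD1, HOXA3), muscle-type actin and myosin genes (ACTC1, ACTA1, MYL4), the growth factor gene IGF2 and the secreted peptide genes NPPB and SPX. The 15 largest falls included pluripotency genes (ZFP42, TDGF1, ZSCAN10, POU5F1, L1TD1), epithelial genes (CDH1, CLDN7, EPCAM, SCNN1A) and anterior neural plate factors (LHX5, HESX1, OTX2). Which direction prevailed rested on 1 library: higher calls made up 46.1% of all calls, and 52.0% (884 higher, 816 lower) without pNE replicate 2.

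**Figure D1:**
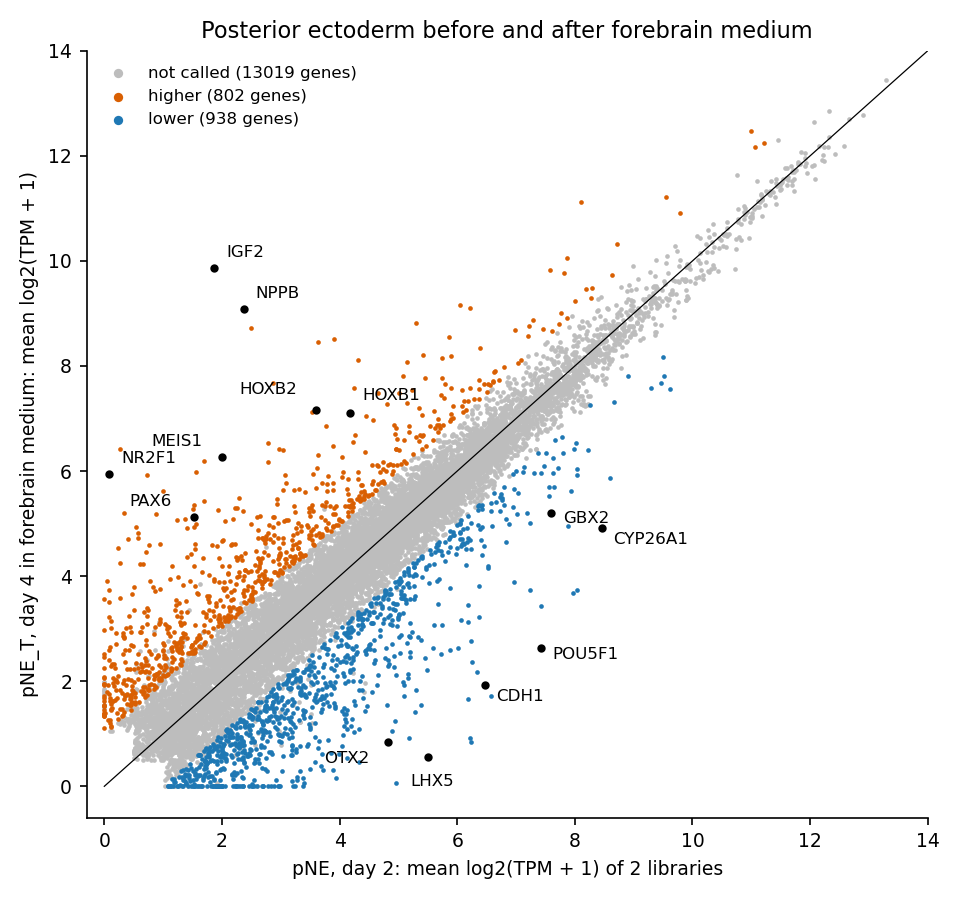
Mean log2(TPM + 1) of the 2 pNE libraries (x axis) against that of the 2 pNE_T libraries (y axis) for 14759 genes. Orange points are the 802 genes called higher at day 4 and blue points the 938 called lower, black points are named genes, and the line marks equal levels. IGF2 and NPPB lie farthest above the line, and POU5F1, CDH1, LHX5 and OTX2 far below it.

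Hindbrain genes rose in the forebrain medium. Of the 17 genes of the hindbrain list, 14 passed the filter, and 11 were called higher and 1 lower, with a median change of 2.71. HOXD1, HOXB3, HOXD3 and EGR2 were below 1 TPM in both pNE libraries and entered through day 4 alone, which favours a rise. HOXB1, which marks rhombomere 4 of the hindbrain, was at 15.2 and 19.5 TPM in pNE and at 126 and 147 TPM in pNE_T. HOXB2 was at 10.5 and 11.7 TPM in pNE and at 147 and 138 TPM in pNE_T. HOXA3, a gene of more posterior rhombomeres, was at 1.38 and 3.44 TPM in pNE and at 74.6 and 69.7 TPM in pNE_T. Both day-4 libraries lay far above both day-2 libraries in all 3 genes. HOXB1 rose by 2.91 ± 0.14 (SE, limma adjusted p = 2.80e-09) on the log2 scale, HOXB2 by 3.57 ± 0.16 (SE, limma adjusted p = 2.10e-09) and HOXA3 by 4.49 ± 0.24 (SE, limma adjusted p = 9.55e-09).

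Paralogue group 3 and HOXD1 started from almost nothing. HOXD1 was at 0.246 and 0.288 TPM in pNE and at 40.3 and 31.9 TPM in pNE_T, a rise of 4.86 ± 0.15 (SE, limma adjusted p = 7.21e-11). HOXB3 went from 0.981 and 0.709 TPM to 32.2 and 38.2 TPM, and HOXD3 from 0.0631 and 0 TPM to 16.4 and 12.0 TPM. HOXA2 rose less, by 1.77 ± 0.17 (SE, limma adjusted p = 2.26e-06), from 2.98 and 3.85 TPM to 13.02 and 14.9 TPM. The HOX clusters are dense in antisense transcripts, and strand use in the quantification is not given in the sources used here, so HOX values may include such reads.

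Among other hindbrain regulators, ZNF703, a zinc finger repressor, rose from 26.8 and 43.7 TPM to 149.8 and 161 TPM, by 2.15 ± 0.23 (SE, limma adjusted p = 7.27e-06). EGR2, the marker of rhombomeres 3 and 5, stayed low at 1.77 and 3.14 TPM in pNE_T against 0.244 and 0.534 TPM in pNE, although it was called higher by 1.29 ± 0.25 (SE, limma adjusted p = 0.00119). GBX2, which sets the anterior edge of the hindbrain, went the other way. It was at 172 and 216 TPM in pNE and at 38.4 and 33.9 TPM in pNE_T, and fell by 2.39 ± 0.19 (SE, limma adjusted p = 5.90e-07), so that both day-4 libraries lay below both day-2 libraries. ZNF503, a relative of ZNF703, was at 88.1 and 122 TPM in pNE and 79.2 and 88.5 TPM in pNE_T and was not called.

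Further along the clusters few genes were measurable. Of 19 genes in HOX paralogue groups 4 to 9, only HOXD4, HOXB4, HOXA5 and HOXB5 passed the filter, and all 4 were called higher. HOXD4 and HOXB4 were listed at 0 in both pNE libraries, and stood at 16.7 and 6.97 TPM and at 2.30 and 1.59 TPM in pNE_T. HOXA5 rose from 0.248 and 0.276 TPM to 4.73 and 7.74 TPM, by 2.49 ± 0.21 (SE, limma adjusted p = 9.18e-07). None of the 15 other genes exceeded 1.38 TPM in any of the 4 libraries. All 4 passed the filter through the day-4 libraries alone, so their count carries no weight.

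Among partners of the HOX proteins only rises were called, though 5 genes were not called and the lowest change was -0.31. Of 12 HOX cofactor genes, all of which passed the filter, 7 were called higher and none lower in limma (0 lower at an unadjusted p under 0.05), with a median change of 1.08. TSHZ1 and TSHZ2 were below 1 TPM in both pNE libraries and entered through day 4 alone. MEIS1, a TALE homeodomain cofactor, was at 2.78 and 3.26 TPM in pNE and at 76.7 and 76.2 TPM in pNE_T. MEIS3 was at 48.3 and 56.4 TPM and at 212 and 221 TPM, and MEIS2 at 94.7 and 101.2 TPM and at 227 and 246 TPM, in the same order. The day-4 libraries were higher in all 3 genes, by 4.27 ± 0.22 (SE, limma adjusted p = 7.87e-09) for MEIS1, 2.03 ± 0.10 (SE, limma adjusted p = 6.37e-09) for MEIS3 and 1.26 ± 0.12 (SE, limma adjusted p = 3.06e-06) for MEIS2. The teashirt genes TSHZ1 and TSHZ2, zinc finger factors of the trunk and hindbrain, rose from 0.132 and 0.284 TPM to 17.1 and 18.97 TPM and from 0.734 and 0.689 TPM to 13.7 and 14.2 TPM. PBX2 was at 107 and 122 TPM in pNE and 132 and 138 TPM in pNE_T, and its change of 0.24 ± 0.078 (SE, limma adjusted p = 0.0268) was not called. PBX3 and PKNOX2 were called, but PBX3 changed by only 0.97 without pNE_T replicate 2. PKNOX2 changed by 0.98 without pNE_T replicate 1 and by 0.80 without pNE replicate 1.

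The nuclear receptor NR2F1 (COUP-TFI), a target of retinoid signalling and a regulator of neural patterning, had the fifth largest rise of all genes that met the naming rule. It was at 0.0278 and 0.0905 TPM in pNE and at 57.7 and 64.0 TPM in pNE_T, a log2 change of 5.87 ± 0.17 (SE, limma adjusted p = 3.50e-11), and it entered through day 4 alone. Its relative NR2F2 rose from 1.35 and 2.58 TPM to 20.4 and 23.8 TPM, by 2.99 ± 0.23 (SE, limma adjusted p = 2.89e-07). The other members of this list, NR2F6 and NR6A1, were not called, with changes of -0.034 and -0.22.

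**Figure D2:**
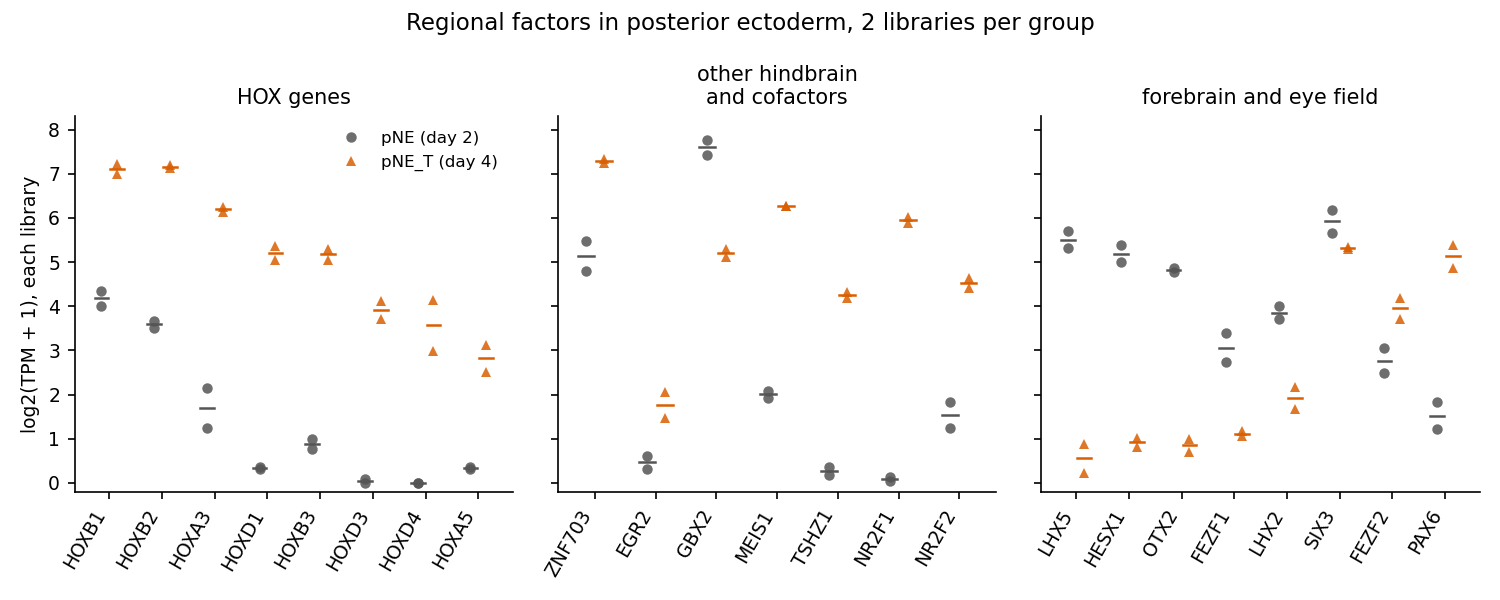
Levels of regional factors as log2(TPM + 1) in each library, with grey circles for the 2 pNE libraries, orange triangles for the 2 pNE_T libraries and short bars for their means. The HOX genes and cofactors shown lie higher at day 4, whereas GBX2 and the forebrain factors LHX5, HESX1, OTX2, FEZF1 and LHX2 lie lower, and PAX6 and FEZF2 are higher.

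Several forebrain factors fell in the forebrain medium. Of 16 forebrain and eye field genes, 10 passed the filter, and 5 were called lower and 2 higher, with a median change of -1.37. LHX5 and OTX2 were below 1 TPM in both pNE_T libraries and entered through day 2 alone, which favours a fall. LHX5, a LIM homeodomain factor of the anterior neural plate, was at 38.7 and 51.1 TPM in pNE and at 0.835 and 0.174 TPM in pNE_T. HESX1, a repressor of the anterior neural plate, was at 40.5 and 30.9 TPM and at 0.766 and 1.03 TPM. OTX2 was at 28.3 and 26.6 TPM and at 0.988 and 0.634 TPM. In all 3 genes both day-4 libraries were near 1 TPM or below, and the changes were -4.95 ± 0.22 (SE, limma adjusted p = 2.05e-09), -4.26 ± 0.24 (SE, limma adjusted p = 1.69e-08) and -3.98 ± 0.14 (SE, limma adjusted p = 2.27e-10). Anterior cells in the same medium had called falls of these 3 genes too, with smaller changes of -1.82, -1.95 and -1.63. Between media at day 4, LHX5 and HESX1 were not called against pNE_M or pNE_H. OTX2 was called lower than in pNE_M, at -1.69, but not against pNE_H. FEZF1 and LHX2 fell by 1.95 ± 0.23 (SE, limma adjusted p = 2.13e-05) and 1.93 ± 0.32 (SE, limma adjusted p = 3.12e-04). SIX3, a forebrain and eye regulator, was at 49.7 and 71.7 TPM in pNE and 38.0 and 39.8 TPM in pNE_T, and its change of -0.61 was not called. RAX, EMX2, OTX1 and FOXD1 did not pass the filter and did not exceed 0.49 TPM.

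PAX6, which is expressed in the eye field and forebrain and also along the hindbrain and spinal cord, ran against this trend. It was at 1.34 and 2.54 TPM in pNE and at 41.0 and 28.3 TPM in pNE_T, and rose by 3.61 ± 0.21 (SE, limma adjusted p = 2.23e-08). FEZF2, a factor of the anterior forebrain, was at 4.60 and 7.26 TPM in pNE and at 17.3 and 12.1 TPM in pNE_T, and was called higher by 1.18 ± 0.24 (SE, limma adjusted p = 0.00168). Its change was 0.94 without pNE_T replicate 1 and 0.90 without pNE replicate 1, and in either case it was not called. Midbrain and isthmus genes stayed low: of 11, only FGF8, SP8 and LMX1B passed the filter, and none was called in limma, nor was any under an unadjusted p of 0.05. EN1, EN2, PAX2, PAX5, PAX8 and WNT1 did not exceed 0.45 TPM in any of the 4 libraries. Without pNE replicate 2, 1 of the 3 was called higher.

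Few genes of caudal progenitors could be tested. WNT5A and WNT5B, ligands of non-canonical WNT signalling, rose from 7.85 and 9.88 TPM to 33.5 and 29.6 TPM and from 1.31 and 1.54 TPM to 8.83 and 11.9 TPM. NKX1-2, a homeobox gene of the preneural tube, fell from 6.94 and 6.19 TPM to 0 and 0.175 TPM, by 2.80 ± 0.20 (SE, limma adjusted p = 1.47e-07). SP5, a direct WNT target, fell from 2.47 and 8.76 TPM to 0.0895 and 0.0967 TPM, by 2.41 ± 0.39 (SE, limma adjusted p = 2.98e-04). Both of these falls were favoured by the filter, which NKX1-2 and SP5, like WNT8A, passed through day 2 alone. CDX1, CDX2, CDX4, TBXT, EVX1 and WNT3A did not pass it.

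The retinoid pathway changed in parts. Of its 20 genes, 17 passed the filter, with 6 called higher, 4 lower and a median change of 0.39. CYP26B1 and ALDH1A2 entered through day 4 alone and CYP26C1 through day 2 alone. RARB, a receptor gene that is itself a direct retinoic acid target, was at 21.4 and 20.0 TPM in pNE and at 77.8 and 85.2 TPM in pNE_T, above the day-2 level in both libraries, and rose by 1.93 ± 0.15 (SE, limma adjusted p = 4.93e-07). The cellular binding protein genes CRABP1 and CRABP2 rose by 1.94 and 1.49. CRABP2 reached 6064 and 5372 TPM in pNE_T from 2091 and 1982 TPM in pNE. CYP26B1, an enzyme that breaks down retinoic acid, rose from 0.0529 and 0.250 TPM to 5.93 and 7.17 TPM. CYP26A1, the enzyme of the same family that responds fastest to retinoids, was at 352 and 348 TPM in pNE and at 29.8 and 28.7 TPM in pNE_T. It fell by 3.54 ± 0.17 (SE, limma adjusted p = 4.67e-09), with no overlap between the groups. CYP26C1 and the receptor gene RARG fell too, RARG from 33.0 and 40.7 TPM to 6.04 and 7.35 TPM. DHRS3, a retinaldehyde reductase, rose by 1.10 ± 0.13 (SE, limma adjusted p = 1.35e-05), and its change without pNE_T replicate 2 was 0.99, which is not called. ALDH1A2, the main embryonic enzyme of retinoic acid synthesis, was at 0.124 and 0.607 TPM in pNE and 1.36 and 1.23 TPM in pNE_T and was not called.

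The start of RARB holds the classical direct-repeat retinoic acid response element, and its upstream sequence is shown because RARB was the receptor gene of the list that rose. The window is from RefSeq (GRCh38.p14, chr3:25428150-25428262, plus strand), 5′ to 3′, with the element in capitals, and the element begins 53 bases before the gene's start.
RARB: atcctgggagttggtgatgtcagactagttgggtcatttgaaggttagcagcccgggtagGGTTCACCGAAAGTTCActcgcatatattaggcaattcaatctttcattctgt
The element was searched by name, as direct repeats with a spacing of 5 bases, on both strands of windows from 250 bases before to 50 after each start. It was found in 22 of 27305 promoters (0.0806%). Such a match is a description of sequence and not evidence of binding.

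Readouts of FGF and ERK signalling were mixed, with FGF2 named in both media. Of 26 genes, 23 passed the filter, 2 were called higher and 6 lower, with a median change of -0.40, and 1 of the 23 (FGF19) entered through day 2 alone. SPRY4, a feedback inhibitor of the pathway, was at 77.5 and 86.0 TPM in pNE and at 13.01 and 13.2 TPM in pNE_T, and fell by 2.55 ± 0.10 (SE, limma adjusted p = 7.93e-10). The ETS factors ETV4 and ETV1 and the phosphatase gene DUSP5 fell by 1.22, 1.45 and 1.52. FGFR3, one of the FGF receptors, fell from 128 and 166 TPM to 35.9 and 35.7 TPM. In contrast, SPRY1, from the same family as SPRY4, was at 55.5 and 60.01 TPM in pNE and at 122 and 123 TPM in pNE_T and rose by 1.07 ± 0.074 (SE, limma adjusted p = 1.06e-07). DUSP6, a widely used readout of ERK activity, was at 274 and 238 TPM and 274 and 289 TPM, with overlapping groups and a change of 0.14. SPRY2, ETV5 and IL17RD were not called either, with changes of 0.80, 0.53 and -0.10. FGF13, an intracellular member of the FGF family, rose by 2.32 ± 0.095 (SE, limma adjusted p = 8.16e-10).

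Genes of BMP signalling gave calls in both directions, with the BMP receptor inhibitor LDN193189 named in both media. Of 18 genes 16 passed the filter, 8 were called higher and 2 lower, and the median change was 0.89. NOG, GDF6 and MSX1 were below 1 TPM in both pNE libraries and entered through day 4 alone. ID1, a direct target that holds back differentiation, was at 15.02 and 21.3 TPM in pNE and at 181 and 202 TPM in pNE_T. BAMBI, a decoy receptor, was at 5.48 and 6.26 TPM and at 68.7 and 73.7 TPM. ID2 and SMAD6, a further target and an inhibitory SMAD, rose by 2.35 ± 0.17 (SE, limma adjusted p = 1.82e-07) and 1.74 ± 0.18 (SE, limma adjusted p = 4.54e-06). In each of these 4 genes the day-4 libraries lay above the day-2 libraries, and ID1 and BAMBI rose by 3.35 ± 0.18 (SE, limma adjusted p = 9.88e-09) and 3.39 ± 0.13 (SE, limma adjusted p = 5.16e-10). ID3, another direct target and the most abundant ID gene, instead fell from 469.7 and 488 TPM to 232 and 217 TPM, by 1.09 ± 0.095 (SE, limma adjusted p = 1.09e-06). Among the ligands, BMP4 fell by 1.52 ± 0.20 (SE, limma adjusted p = 5.20e-05), whereas BMP2 and GDF6 rose by 1.24 and 1.58. The BMP antagonist NOG rose from 0.151 and 0 TPM to 4.65 and 5.97 TPM. MSX1 and MSX2, targets found in the dorsal neural tube, stayed below 3 TPM and were not called.

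Most genes of the NODAL branch of TGF-beta signalling were too low to test. NODAL, LEFTY1, LEFTY2, GDF3 and CER1 did not pass the filter. TDGF1, the NODAL co-receptor, was at 32.9 and 27.8 TPM in pNE and at 0.0905 and 0 TPM in pNE_T, and FOXH1, a SMAD partner, at 9.70 and 14.4 TPM and 0.277 and 0.355 TPM. They fell by 4.90 and 3.28, though both entered through day 2 alone and reads shared with pseudogene copies make TDGF1 uncertain. CCN2 and TGFB2 were the 2 genes of this list called higher, and TGFB2 entered through day 4 alone. CCN2, a matrix protein gene induced by both TGF-beta and YAP, reached 411 and 409.8 TPM from 116 and 134 TPM.

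WNT targets gave calls in both directions. Of 23 genes 15 passed the filter, with 4 called higher and 4 lower and a median change of -0.27. WNT3 entered through day 4 alone, and WNT4, SP5 and FZD10 through day 2 alone. AXIN2, the most general WNT target, was at 9.45 and 10.6 TPM in pNE and at 28.0 and 31.1 TPM in pNE_T, and rose by 1.47 ± 0.10 (SE, limma adjusted p = 6.95e-08). LEF1, NKD1 and ZNRF3, which respond to the same pathway, were not called, with changes of 0.41, 0.62 and 0.12. The ligand genes WNT3 and WNT4 moved in opposite directions, by 1.56 ± 0.18 (SE, limma adjusted p = 1.35e-05) and -3.33 ± 0.22 (SE, limma adjusted p = 6.79e-08). FRZB, a secreted WNT antagonist, fell by 2.33 ± 0.13 (SE, limma adjusted p = 1.07e-08).

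Hedgehog pathway genes were called higher in 5 of 10 tested cases. The receptor and target PTCH1 rose from 23.8 and 26.5 TPM to 53.9 and 55.6 TPM, and the co-receptor genes BOC and CDON rose by 1.95 and 1.08. SHH itself was low, at 0.170 and 0.143 TPM in pNE and 2.01 and 2.39 TPM in pNE_T, and entered through day 4 alone. GLI1, a direct target of the pathway, had a change of -1.26 ± 0.46 (SE, limma adjusted p = 0.0451). It was not called without pNE_T replicate 1 (change -0.86), without pNE replicate 1 (-1.05) or without pNE replicate 2 (-1.47), nor with a pseudocount of 0.1, without a filter, with a filter over all 18 libraries or with the replicate number as a block. NKX2-1, NKX2-2, NKX6-1, NKX6-2 and OLIG2, markers of the ventral neural tube, did not pass the filter. Of the dorsoventral and Iroquois genes, IRX3 rose from 7.25 and 10.02 TPM to 29.3 and 28.7 TPM and IRX2 fell from 42.3 and 49.5 TPM to 19.6 and 21.1 TPM. OLIG3, a factor of the dorsal hindbrain, fell from 7.09 and 9.23 TPM to 0.165 and 0 TPM and entered through day 2 alone. IRX5 was called higher by 1.03 ± 0.20 (SE, limma adjusted p = 0.00138), and its change was 0.98 without pNE_T replicate 2 and 0.98 without pNE replicate 2, where it was not called.

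**Figure D3:**
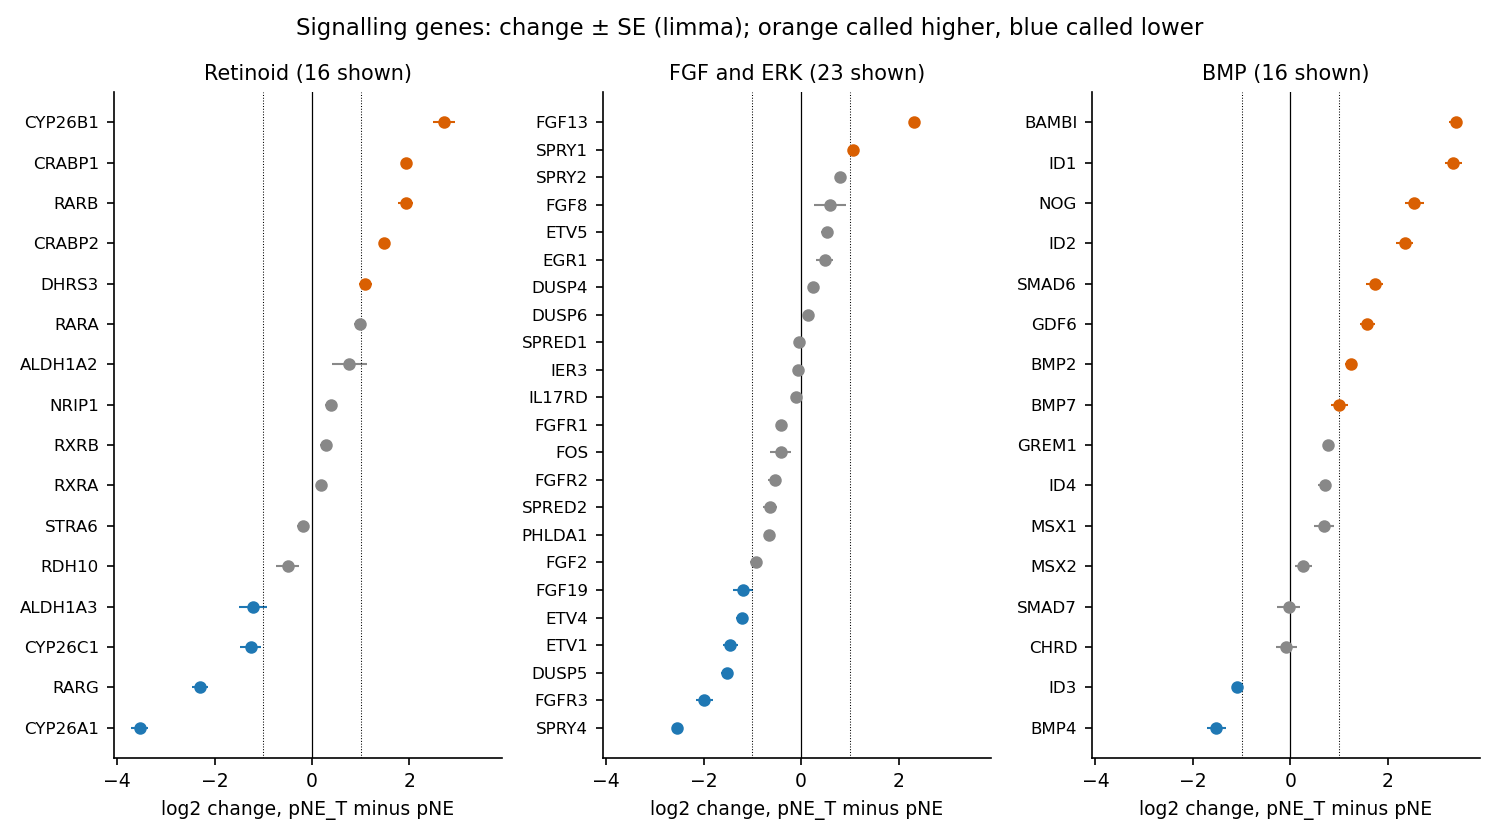
Log2 change of retinoid, FGF and ERK, and BMP genes from pNE to pNE_T (points) with the SE from limma (bars), and dotted lines at the size needed for a call. CYP26A1 and SPRY4 are the lowest points of the first and second panels, and BAMBI and ID1 the highest of the third.

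Pluripotency genes gave falls only. Of 14 listed genes 10 passed the filter, 7 were called lower and none higher in limma (0 higher at an unadjusted p under 0.05), with a median change of -2.92. ZFP42, PRDM14 and TDGF1 were below 1 TPM in both pNE_T libraries and entered through day 2 alone, which favours a fall. POU5F1, a core pluripotency factor, was at 171 and 169 TPM in pNE and at 3.63 and 7.28 TPM in pNE_T, and ZFP42 (REX1) at 77.8 and 68.9 TPM and at 0.907 and 0.879 TPM. DNMT3B, a DNA methyltransferase of early embryonic cells, was at 358 and 413 TPM and at 54.2 and 61.2 TPM. These 3 genes had no overlap between the groups and fell by 4.79 ± 0.22 (SE, limma adjusted p = 2.66e-09), 5.29 ± 0.10 (SE, limma adjusted p = 1.37e-12) and 2.72 ± 0.083 (SE, limma adjusted p = 6.44e-11), though reads shared with pseudogene copies make POU5F1 uncertain. L1TD1 and PRDM14 fell by 3.87 and 3.13. LIN28A, an RNA-binding protein gene that lasts into neural progenitors, was at 1032 and 1074 TPM and 722 and 809 TPM and was not called. NANOG did not pass the filter.

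Epithelial genes fell as well. Of 18 cadherin and epithelial genes, all tested, 10 were called lower and 3 higher, with a median change of -1.53. CDH1 (E-cadherin) was at 88.6 and 86.3 TPM in pNE and at 2.49 and 3.16 TPM in pNE_T, and fell by 4.54 ± 0.23 (SE, limma adjusted p = 5.34e-09). EPCAM, an epithelial adhesion molecule, was at 180.3 and 163 TPM and at 9.14 and 10.5 TPM, and the tight-junction gene CLDN7 at 78.8 and 65.2 TPM and at 1.81 and 2.52 TPM. ESRP1 and ESRP2, which direct epithelial splicing, fell by 3.12 and 2.87. CDH2 (N-cadherin) was at 95.3 and 96.6 TPM in pNE and 191 and 186 TPM in pNE_T, and its change of 0.97 ± 0.10 (SE, limma adjusted p = 4.06e-06) was just under the size needed for a call. The cadherin genes CDH6 and CDH11 and the repressor gene ZEB1 rose by 1.87 ± 0.081 (SE, limma adjusted p = 1.43e-09), 2.67 ± 0.13 (SE, limma adjusted p = 4.50e-09) and 1.63 ± 0.19 (SE, limma adjusted p = 1.69e-05).

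Markers shared by most neural progenitors gave calls in both directions. Of 18 pan-neural genes 3 were called higher and 4 lower, with a median change of -0.20. SOX2 changed by 0.28 ± 0.11 (SE, limma adjusted p = 0.0686), which was not called, and SOX1 was low at 1.05 and 1.22 TPM in pNE and 1.75 and 1.02 TPM in pNE_T. SOX3 fell from 91.9 and 121 TPM to 40.2 and 33.4 TPM (limma adjusted p = 3.73e-05), and FABP7 fell by 1.82. POU3F2 (BRN2), a neural POU factor, rose from 0.883 and 0.456 TPM to 10.1 and 8.96 TPM and entered through day 4 alone. Few genes of neuronal differentiation were measurable: of 20 neurogenesis genes 13 did not pass the filter, among them NEUROD1, ELAVL3, DCX and STMN2. TUBB3, a tubulin of neurons and early neural cells, fell from 172 and 206 TPM to 43.9 and 46.8 TPM, by 2.03 ± 0.10 (SE, limma adjusted p = 5.32e-09). Without pNE_T replicate 2 or without pNE replicate 2, 2 of these genes were called lower in place of 1.

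Notch genes were called in both directions, 3 higher and 3 lower of 14 tested. The target gene HES4 rose by 2.39 ± 0.28 (SE, limma adjusted p = 1.46e-05) and the ligand gene DLL1 by 1.59 ± 0.35 (SE, limma adjusted p = 0.00268). LFNG and NRARP, which tune the receptor's response, fell by 1.42 ± 0.11 (SE, limma adjusted p = 2.98e-07) and 1.86 ± 0.19 (SE, limma adjusted p = 5.74e-06). HES1, the best-known target, was at 53.4 and 57.0 TPM and 38.2 and 38.2 TPM and was not called.

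Markers of other cell types were called in each direction. In the mesoderm and endoderm list 6 of 17 genes passed the filter, with 4 called higher and 1 lower, with 2 higher without pNE replicate 1 and with 2 lower without pNE_T replicate 1. Its summed level was 17.3 and 19.5 TPM in pNE and 41.8 and 38.0 TPM in pNE_T. MEOX1, a gene of somitic mesoderm, rose from 0.530 and 0.614 TPM to 19.8 and 15.8 TPM, by 3.57 ± 0.19 (SE, limma adjusted p = 7.96e-09), and FOXC1 from 0.348 and 0.315 TPM to 5.30 and 4.83 TPM, and both entered through day 4 alone. TBXT, TBX6, MSGN1, MESP1 and SOX17 did not exceed 0.49 TPM. In the endothelial and mesenchymal list 8 of 13 passed, with 6 called higher and 2 lower. CDH5 (VE-cadherin) rose from 0.719 and 0.657 TPM to 22.8 and 23.3 TPM and LUM, a matrix proteoglycan gene, from 0.0207 and 0.145 TPM to 6.90 and 8.95 TPM, and both entered through day 4 alone. KDR, a VEGF receptor, fell from 20.9 and 17.6 TPM to 1.19 and 1.05 TPM, by 3.25 ± 0.15 (SE, limma adjusted p = 2.66e-09). PECAM1, TAL1, COL3A1, PRRX1 and POSTN did not exceed 0.94 TPM. The summed level of this list was 247 and 300.3 TPM in pNE and 423 and 474 TPM in pNE_T, mostly from COL1A1 and COL1A2. The part of such cells in the other results was not tested.

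In the neural crest list 8 of 14 genes passed the filter. SNAI2 and ETS1, which migrating crest and other mesenchymal cells express, rose by 2.09 ± 0.18 (SE, limma adjusted p = 7.93e-07) and 1.59 ± 0.19 (SE, limma adjusted p = 1.89e-05). The list's summed level was 155 and 196 TPM in pNE and 117 and 120.2 TPM in pNE_T. One gene of the list was called lower, and none without pNE replicate 2. In the surface ectoderm and placode list 14 of 16 passed, with 6 called lower and 2 higher, and 1 higher without pNE_T replicate 2 or pNE replicate 1. GRHL3, a factor of the epidermal and neural plate border, fell from 18.3 and 19.8 TPM to 2.44 and 2.65 TPM, by 2.50 ± 0.14 (SE, limma adjusted p = 1.74e-08). TFAP2C and the keratin gene KRT7 fell by 2.45 and 2.17, and the border gene DLX5 by 1.19, with TFAP2C and KRT7 entering through day 2 alone. The summed level of the list was 1522 and 1770.5 TPM in pNE and 1476 and 1613 TPM in pNE_T, mostly from KRT8, KRT18 and KRT19.

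IGF2, a fetal growth factor gene, had the largest rise of all named genes. It was at 2.18 and 3.21 TPM in pNE and at 900.0 and 972 TPM in pNE_T, a change of 7.999 ± 0.16 (SE, limma adjusted p = 1.69e-12), and its transcripts overlap those of the readthrough gene INS-IGF2. Of 16 tested genes of the IGF axis and early embryo RNA-binding list, 6 were called higher and none lower in limma (2 lower at an unadjusted p under 0.05). IGFBP2 and IGFBP3, which bind IGFs outside the cell, rose from 692 and 801 TPM to 2373 and 2395 TPM and from 32.8 and 30.1 TPM to 181 and 178 TPM. IGFBP3 rose more in anterior cells, from 20.3 and 19.6 TPM in aNE to 745 and 769 TPM in aNE_T. Its posterior change less the anterior one was -2.70 ± 0.16 (SE, limma adjusted p = 8.11e-08). CDKN1C, an imprinted inhibitor of the cell cycle that lies near IGF2, rose by 2.59 ± 0.14 (SE, limma adjusted p = 9.88e-09). The receptor genes IGF1R and IGF2R changed by 0.42 and 0.31 and were not called.

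Several secreted or cell-surface proteins were among the largest rises. SPX, which encodes the peptide hormone spexin, rose from 4.26 and 5.07 TPM to 407 and 438 TPM, by 6.23 ± 0.24 (SE, limma adjusted p = 5.14e-10). NELL1, a secreted protein with EGF-like repeats, rose from 0.140 and 0.259 TPM to 79.5 and 89.9 TPM, by 6.16 ± 0.17 (SE, limma adjusted p = 3.39e-11). RELN, a matrix protein that guides migrating neurons, rose from 0.359 and 0.275 TPM to 27.3 and 23.3 TPM, and COL25A1, a membrane-bound collagen, from 0.911 and 0.444 TPM to 57.6 and 61.8 TPM. NELL1, RELN and COL25A1 entered through day 4 alone, which favours a rise. Of 25 tested guidance genes, 9 were called higher and none lower in limma (4 lower at an unadjusted p under 0.05), among them the genes of the secreted cues SEMA3C and SLIT2, which rose by 4.42 ± 0.30 (SE, limma adjusted p = 9.04e-08) and 1.97 ± 0.11 (SE, limma adjusted p = 1.85e-08). UNC5C, a netrin receptor, and EFNB2, an ephrin of hindbrain boundaries, rose by 2.27 and 1.32. Without pNE replicate 1, 1 guidance gene was called lower. COL2A1, a fibrillar collagen, was at 59.3 and 72.1 TPM and at 538 and 614 TPM, the largest rise among the 20 matrix and integrin genes. Of these, 5 were called higher and 2 lower, with ITGA6, a laminin receptor subunit, lower by 2.34. The transcription factor ZBTB16 (PLZF), which marks neural progenitors, rose from 0.848 and 1.17 TPM to 47.4 and 49.4 TPM.

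Genes known from heart and skeletal muscle made up part of the largest rises. ACTC1 (cardiac actin) was at 5.35 and 7.34 TPM in pNE and at 213 and 196 TPM in pNE_T, and ACTA1 (skeletal actin) at 11.2 and 11.7 TPM and at 342 and 355 TPM. NPPB, the gene of a natriuretic peptide, was at 4.40 and 3.96 TPM and at 596 and 493 TPM. ANKRD1, a stretch-responsive gene and YAP target, was at 15.1 and 13.03 TPM and at 375 and 359 TPM, and the myosin light chain gene MYL4 at 0.508 and 0.390 TPM and at 31.2 and 28.3 TPM. In these 5 genes both day-4 libraries lay above both day-2 libraries, by 4.82 ± 0.12 (SE, limma adjusted p = 1.06e-11), 4.81 ± 0.11 (SE, limma adjusted p = 4.89e-12), 6.71 ± 0.23 (SE, limma adjusted p = 2.01e-10), 4.61 ± 0.21 (SE, limma adjusted p = 1.98e-09) and 4.41 ± 0.17 (SE, limma adjusted p = 4.12e-10). ACTC1 and ACTA1 are close paralogues, so reads may be shared between them. MYL4 entered through day 4 alone, which favours a rise. Of the 16 YAP and TEAD targets, all tested, 3 were called higher (ANKRD1, CCN2 and CCN1) and none lower in limma (4 lower at an unadjusted p under 0.05), and 5 were called higher without pNE replicate 2.

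The promoters of both actin genes hold a CArG box, the site bound by serum response factor, and are shown because these genes rose together. The windows are from RefSeq (GRCh38.p14), 5′ to 3′ along each gene's minus strand, with the CArG box in capitals. That of ACTC1 (chr15:34795589-34795718) has the box 109 bases before the start, and that of ACTA1 (chr1:229434122-229434251) 97 bases before it.
ACTC1: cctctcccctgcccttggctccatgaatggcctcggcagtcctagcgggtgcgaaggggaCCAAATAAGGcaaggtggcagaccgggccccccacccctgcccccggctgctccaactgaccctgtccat
ACTA1: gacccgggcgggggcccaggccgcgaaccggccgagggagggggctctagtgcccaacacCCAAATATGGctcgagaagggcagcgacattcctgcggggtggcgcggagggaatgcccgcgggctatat
The box was searched by name on both strands and was found in 351 of 27305 promoters (1.29%). A window was found for 10953 of the 14759 tested genes (74.2%), too few for a count over the genes that rose or fell.

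Cell cycle and cholesterol synthesis genes gave no call. None of 20 cell cycle genes was called in limma (9 at an unadjusted p under 0.05, 4 of them higher and 5 lower), and none of 17 cholesterol synthesis genes (4 at an unadjusted p under 0.05). The lists had median changes of 0.027 and 0.063. The proliferation marker MKI67 was at 35.9 and 39.3 TPM in pNE and 46.4 and 45.1 TPM in pNE_T. Of 21 glycolysis and hypoxia genes 7 were called lower and none higher in limma (2 higher at an unadjusted p under 0.05), with a median change of -0.39. LDHA, which makes lactate, fell from 159.7 and 156 TPM to 60.1 and 62.0 TPM, by 1.36 ± 0.12 (SE, limma adjusted p = 1.24e-06), and EGLN3, a hypoxia-induced oxygen sensor, fell by 2.18 ± 0.14 (SE, limma adjusted p = 4.78e-08). PGK1 and VEGFA, which respond to hypoxia too, changed by -0.065 and -0.012. Among p53 targets, GDF15 and MDM2 fell by 2.34 ± 0.18 (SE, limma adjusted p = 2.62e-07) and 1.503 ± 0.18 (SE, limma adjusted p = 1.65e-05), whereas CDKN1A was at 88.7 and 94.2 TPM and 78.6 and 79.9 TPM and was not called. Of 15 amino acid and ER stress genes, VLDLR alone was called, with a rise of 1.203 ± 0.16 (SE, limma adjusted p = 5.00e-05), and 2 were called higher without pNE_T replicate 2 or without pNE replicate 1. Of the largest falls not yet described, CYP2S1 and ASS1, a cytochrome and an enzyme of arginine synthesis, fell by 4.29 and 4.28. TRBC2, a T-cell receptor constant segment with a near copy in TRBC1 and so uncertain, was at 78.9 and 70.6 TPM in pNE and 0.338 and 1.43 TPM in pNE_T.

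Anterior neural ectoderm given the same medium provided the test of what differed by origin. That response (aNE to aNE_T) gave 713 genes higher (4.83%) and 687 lower (4.65%) over the same tested genes, and it shares no library with the posterior one. A rise in both origins was called for 265 genes, 33.0% of the posterior and 37.2% of the anterior rises. A fall in both was called for 378 genes, 40.3% of the posterior and 55.02% of the anterior falls. Opposite calls were made for 27 genes that rose in posterior and fell in anterior cells, and for 42 genes that did the reverse. The difference between the responses, tested as an interaction in limma, was called for 517 genes in the positive direction (3.50%) and 628 in the negative direction (4.26%). Plating density at day 4 also differed between the origins, so it cannot be told apart from origin here.

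Some changes were called in both origins. POU5F1 fell by 5.33 in anterior cells, EPCAM by 3.57 and ZBTB16 rose by 4.61, and none of the 3 was called in the interaction. For ZBTB16 the difference was 0.011 ± 0.22 (SE, limma adjusted p = 0.986). MYL4 behaved likewise, with a rise of 4.73 in anterior cells and a difference of -0.33 ± 0.24 (SE, limma adjusted p = 0.454). Other genes changed in the same direction in both origins but more in posterior cells, with the interaction called. Anterior changes were -4.01 for ZFP42, -2.07 for TDGF1, -2.82 for CDH1, 3.15 for NPPB, 2.36 for ACTA1, 1.84 for ACTC1 and 1.71 for ANKRD1. LHX5, HESX1 and OTX2 were of this kind too. IGFBP3 and FEZF2 rose more in anterior cells, by 5.18 and 2.46.

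The positive differences were led by genes that were not called in anterior cells. IGF2 was at 2.63 and 1.77 TPM in aNE and at 2.80 and 2.55 TPM in aNE_T, and its change exceeded the anterior one by 7.79 ± 0.23 (SE, limma adjusted p = 1.45e-10). NELL1, SPX, NR2F1 and HOXD1 exceeded it by 6.20, 6.02, 5.53 and 4.84. In the hindbrain list 10 of 14 tested genes had a positive and 1 a negative difference. NR2F1 was at 0.0701 and 0.381 TPM in aNE and 0.659 and 0.422 TPM in aNE_T, and HOXD1 at 0.0267 and 0 TPM in aNE_T. For 3 further genes the direction itself differed. BAMBI rose in posterior cells and fell in anterior cells, from 5.84 and 5.14 TPM to 0.971 and 0.922 TPM, a difference of 5.13 ± 0.19 (SE, limma adjusted p = 1.24e-09). WLS, which carries WNT ligands to the cell surface, went from 71.5 and 62.1 TPM to 162 and 139 TPM in posterior and from 100.0 and 88.5 TPM to 5.76 and 7.03 TPM in anterior cells, a difference of 4.85 ± 0.17 (SE, limma adjusted p = 1.10e-09). BMPER, a secreted modulator of BMP, went from 3.63 and 3.93 TPM to 38.7 and 38.1 TPM and from 6.17 and 7.73 TPM to 1.54 and 1.05 TPM, a difference of 4.84 ± 0.30 (SE, limma adjusted p = 9.81e-08).

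The negative differences were led by genes that fell in posterior cells and rose in anterior ones. GBX2 was at 1.04 and 1.05 TPM in aNE and at 29.3 and 30.7 TPM in aNE_T, and the difference between the responses was -6.31 ± 0.28 (SE, limma adjusted p = 4.58e-09). The origins differed in GBX2 mostly at day 2, with 172 and 216 TPM in pNE and 38.4 and 33.9 TPM in pNE_T. SPRY4 was at 6.395 and 5.03 TPM in aNE and 88.2 and 90.6 TPM in aNE_T, a difference of -6.31 ± 0.15 (SE, limma adjusted p = 2.39e-11). In pNE_T, SPRY4 was at 13.01 and 13.2 TPM. CEACAM21, an adhesion molecule gene, fell from 19.2 and 18.3 TPM to 3.90 and 6.05 TPM in posterior cells and rose from 1.62 and 1.47 TPM to 114 and 124 TPM in anterior cells. KDR, SCUBE1, F13A1 and GRIA3 differed by -5.42, -4.70, -4.67 and -4.58. LHX2, a forebrain and eye factor, reached 101.1 and 102 TPM in aNE_T against 2.17 and 3.52 TPM in pNE_T. In the forebrain list 9 of 10 tested genes had a negative difference, and PAX6 alone a positive one, of 4.25 ± 0.30 (SE, limma adjusted p = 3.56e-07). PAX6 was at 28.9 and 29.3 TPM in aNE and 17.0 and 19.7 TPM in aNE_T. In the FGF and ERK list 15 of 23 had a negative and none a positive difference in limma (4 positive at an unadjusted p under 0.05). DUSP6, not called in posterior cells, was at 29.3 and 33.6 TPM in aNE and 277 and 272 TPM in aNE_T, close to its level in pNE_T. FGF2 was named on day 2 for pNE and not for aNE, and its part in these differences was not tested.

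**Figure D4:**
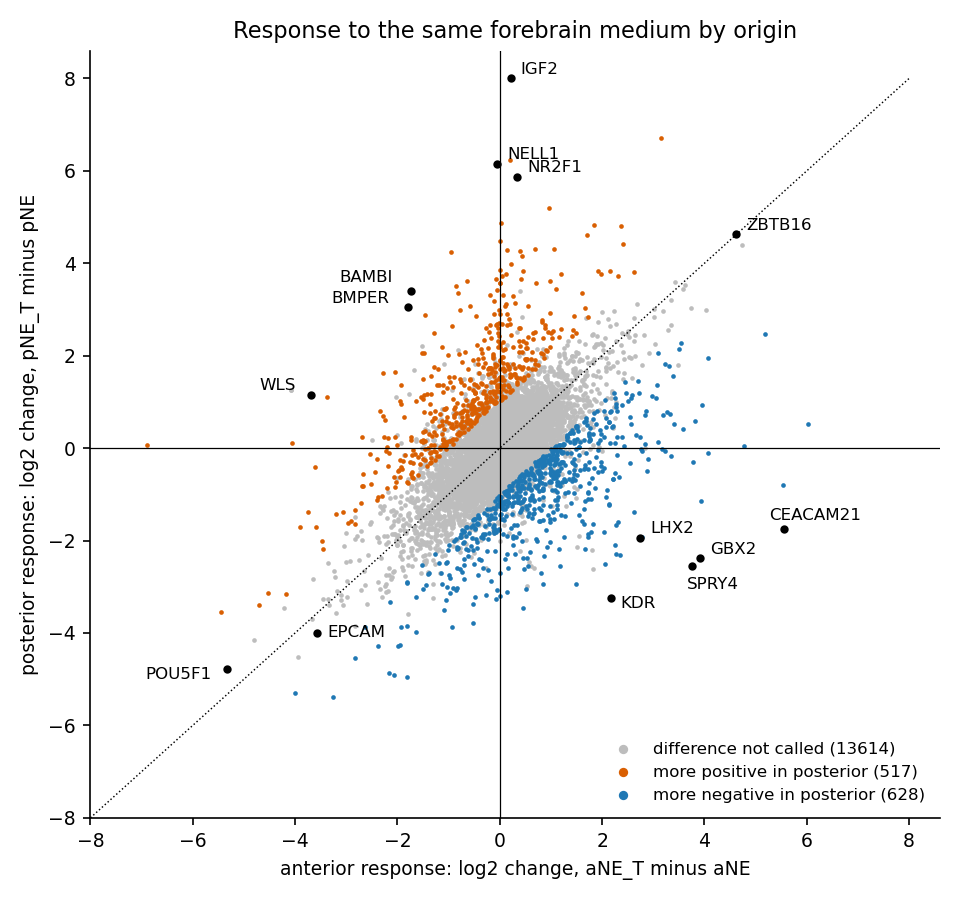
Log2 change in forebrain medium of anterior cells (x axis) against that of posterior cells (y axis) for 14759 genes, with the dotted line at equal change. Orange points mark the 517 genes whose change was more positive in posterior cells and blue points the 628 whose change was more negative. IGF2, NELL1 and NR2F1 lie near 0 on the x axis, GBX2, SPRY4 and CEACAM21 lie in the lower right, and ZBTB16 and POU5F1 lie close to the dotted line.

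Cells of posterior origin taken to day 4 in the other media showed which day-4 levels differed with the medium at the same plating density. These comparisons share the pNE_T libraries with the response. Against the midbrain medium, 901 genes were higher in pNE_T (6.10%) and 410 lower (2.78%). Against the hindbrain medium, 585 were higher (3.96%) and 205 lower (1.39%). The filter uses the pNE and pNE_T libraries and so leaves out genes that are high in the other media alone. With a filter over all 18 libraries the counts were 901 and 564, and 576 and 281, and with quantile normalization 728 and 536, and 462 and 297, so the share of higher calls fell from 68.7% to 57.6% and from 74.1% to 60.9% under that normalization.

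Several genes that rose in the response were not called between media. HOXB2 was at 147 and 138 TPM in pNE_T, 173 and 184 TPM in pNE_M and 253 and 172 TPM in pNE_H, and its differences of -0.32 ± 0.16 (SE, limma adjusted p = 0.148) and -0.55 ± 0.16 (SE, limma adjusted p = 0.0275) were not called. HOXA3 and IGF2 were not called either, with differences of -0.019 and 0.048 for HOXA3 and -0.25 and -0.44 for IGF2, first against midbrain and then against hindbrain medium. HOXB1 was lower in forebrain medium than in both others, by 1.33 ± 0.14 (SE, limma adjusted p = 5.52e-06) and 1.27 ± 0.14 (SE, limma adjusted p = 1.85e-05). HOXA5 and the BMP antagonist NOG were lower in both comparisons too, by 1.21 and 1.13 and by 3.27 and 2.37. The WNT targets AXIN2 and LEF1 were highest in pNE_M, with AXIN2 at 272 and 268 TPM there. NR2F1 was higher in forebrain medium, by 2.44 ± 0.17 (SE, limma adjusted p = 1.10e-07) and 1.82 ± 0.17 (SE, limma adjusted p = 4.50e-06).

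Genes called in the response and, in the same direction, in both medium comparisons were ranked by the smaller of their 2 differences, and the first 8 that were higher and 7 of the first 8 that were lower are given as a description, since they were chosen for that size. ACTA1 was at 5.03 and 4.63 TPM in pNE_M and at 13.4 and 12.0 TPM in pNE_H, and higher in pNE_T by 5.91 and 4.67. GFRA1, a receptor for GDNF-family ligands, was at 105 and 100.5 TPM in pNE_T, 1.28 and 1.19 TPM in pNE_M and 9.12 and 8.49 TPM in pNE_H. CALB2 (calretinin) was at 47.2 and 47.5 TPM, 0.288 and 0 TPM and 3.39 and 3.97 TPM in the same order. IGFBP3, PROC, ADAMTSL4, FEZF2 and ADCY2 were the others, with smallest differences of 3.24, 3.24, 3.08, 2.94 and 2.92. GFRA1 and IGFBP3 lay above the pNE level of 41.3 and 42.7 TPM and of 32.8 and 30.1 TPM in the forebrain medium and below it in both other media. PAX6 was at 0.508 and 0.232 TPM in pNE_M and 5.39 and 5.39 TPM in pNE_H, and higher in pNE_T by 4.68 and 2.46.

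Among the genes lower in the forebrain medium, SPRY4 was at 71.8 and 73.9 TPM in pNE_M and 65.3 and 61.5 TPM in pNE_H, and lower in pNE_T by 2.39 and 2.19. ID3 was at 881 and 961 TPM in pNE_M and 1141 and 973 TPM in pNE_H. ADAMTS19, SLC7A8, FABP7, HS3ST1 and PLA2G3 were the others, with smallest differences of -2.51, -1.81, -1.77, -1.68 and -1.44. Of the 16 tested BMP genes 6 were lower and 2 higher than in pNE_M, and 6 lower and 1 higher than in pNE_H. MSX1 was at 1.72 and 2.55 TPM in pNE_T, 666 and 646 TPM in pNE_M and 42.7 and 34.2 TPM in pNE_H.

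**Figure D5:**
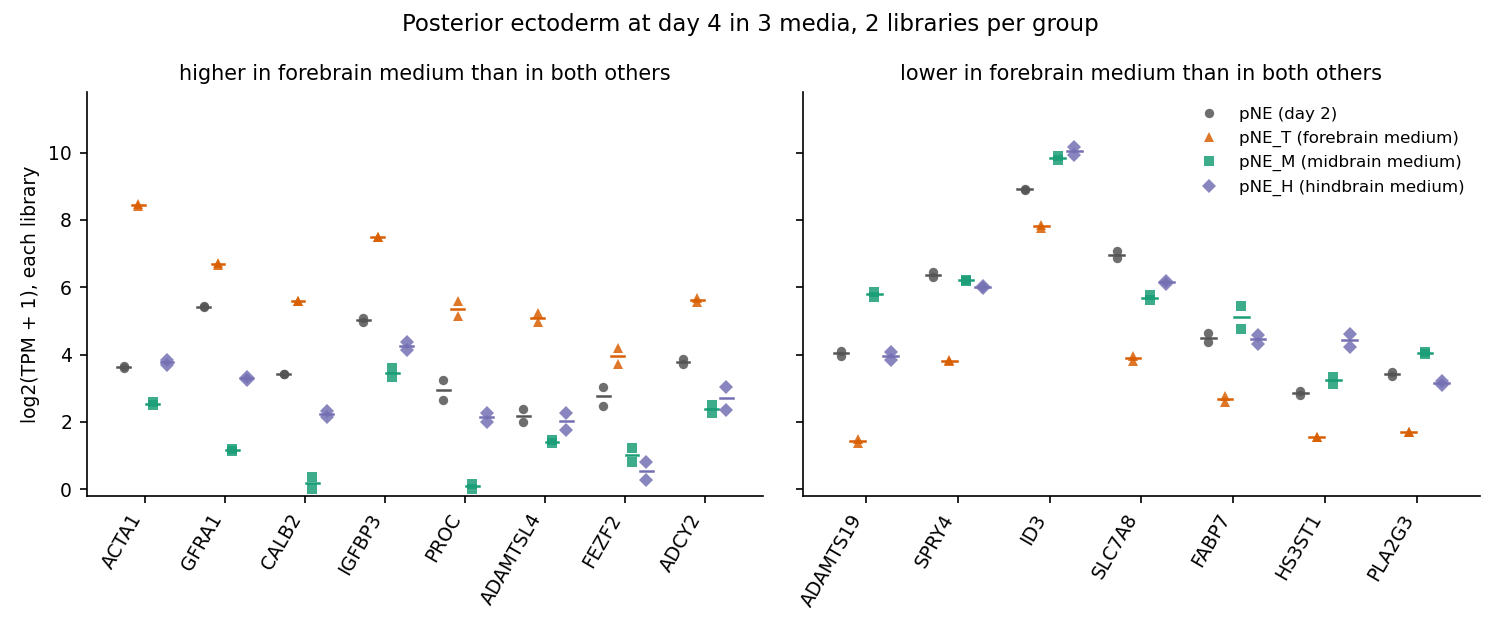
Levels as log2(TPM + 1) in each library of pNE (day 2, grey circles) and of pNE-derived cells at day 4 in forebrain (orange triangles), midbrain (green squares) and hindbrain medium (purple diamonds), with short bars for the means of 2 libraries. The left panel shows the 8 genes that ranked first as higher in forebrain medium than in both others, among them ACTA1 and GFRA1, and the right panel 7 of the 8 that ranked first as lower, among them SPRY4 and ID3.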

How the data were processed

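Poly-A RNA libraries were sequenced by the authors, and bcl2fastq, FastQC, Trim Galore, kallisto, deepTools and the build hg38 are named, without versions, per the submitters' processing notes. The deposited table gives TPM, a share of all transcripts of a library scaled by transcript length, for 37550 rows and 18 libraries, and every column matched 1 library by its name. How transcripts were summed to genes and whether strand was used are not given in the sources used here. TPM is relative to each library's total and keeps no depth, so no counting error could be given.

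Values were compared as log2(TPM + 1) with limma 3.58.1 (R 4.3.3), with 1 mean per group over all 18 libraries (9 residual degrees of freedom), an intensity trend in the variance, and Benjamini-Hochberg adjustment over the 14759 genes that reached 1 TPM in 2 or more of the pNE and pNE_T libraries. A fold change on this scale understates the change of low genes. Calls needed an adjusted p under 0.05 and a log2 change of at least 1. The contrasts were pNE_T against pNE, that difference against aNE_T minus aNE, and pNE_T against pNE_M and pNE_H. The procedure was tested on simulated data. Genes are named from 32 lists (521 genes; MSX3 and H19 were not analysed here), as the 15 largest rises and falls among called genes with non-overlapping groups and a mean of 5 TPM or more in the group with the larger level, as the 8 largest differences from the anterior response in each direction, and as the 8 genes in each direction that differed most from both other media. Some members of the lists and rankings are not reported here, though the counts include them. Members and lists were chosen with earlier results of these data known. Alternatives were another pseudocount, 3 other filters, 2 scalings, no fold threshold, a replicate block, fits of only the libraries compared, and leaving out each library. Promoter windows came from RefSeq (GRCh38.p14), matched by symbol. Summaries and plots used Python 3.11.15, pandas 2.3.3, numpy 2.4.6 and matplotlib 3.10.9.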

Additional observations from a re-analysis of the deposited data

Results flagged for a closer look

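The change in forebrain medium differed between posterior and anterior cells for 1145 genes by the interaction test in limma. Among named genes, the posterior change exceeded the anterior one by 7.79 (log2) for IGF2, 6.20 for NELL1, 6.02 for SPX, 5.53 for NR2F1, 5.13 for BAMBI, 4.85 for WLS, 4.84 for HOXD1 and 4.84 for BMPER. It was below the anterior one for CEACAM21 (-7.30), SPRY4 (-6.31), GBX2 (-6.31), KDR (-5.42), SCUBE1 (-4.70), LHX2 (-4.68), F13A1 (-4.67) and GRIA3 (-4.58). Genes of the lists with opposite calls in the 2 origins were DHRS3, at 4.46, IRX3, at 3.71, and IRX5, at 2.67, on the positive side. On the negative side these were ETV4, at -3.37, FABP7, at -3.87, GRHL3, at -4.56, and ITGB5, at -2.58. DHRS3, the retinaldehyde reductase, was at 56.4 and 62.9 TPM in pNE and 119.7 and 138 TPM in pNE_T, and at 15.1 and 18.3 TPM in aNE and 0.695 and 0.720 TPM in aNE_T. GRHL3 was at 9.28 and 8.16 TPM in aNE and 41.7 and 37.7 TPM in aNE_T, and FABP7 at 8.72 and 8.86 TPM and 39.5 and 39.4 TPM.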

How the results depend on the processing

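With an adjusted p under 0.05 and no fold threshold, 5719 genes passed in the response, 2063 in the difference from the anterior response, 4716 against midbrain medium and 3072 against hindbrain medium. Under every other alternative these 4 counts stayed within 1.5 times of 1740, 1145, 1311 and 790. Leaving out 1 library gave 1700 to 1750, 1029 to 1111, 1306 to 1369 and 801 to 826. The replicate numbers did not pair the libraries (correlation of same-numbered deviations 0.023 for pNE and pNE_T, across genes), and a replicate block gave 1730, 1130, 1314 and 795 calls and ended 1 call among the named or listed genes of the response (GLI1, at -1.26). No direction reversed under any alternative, and 178 of 202 called genes that are named or in the lists kept their call under all of them that tested the gene. The other 24 lost it under at least 1 alternative. Among them, the change in the response was 0.86 for NES and 0.76 for NOTCH3 without pNE replicate 1, and -0.81 for NOTCH1, -0.84 for NGFR and -0.86 for TCF7 without pNE replicate 2. GRHL2 and PDGFRA were not called with a pseudocount of 0.1 (-1.57 and 1.30), without a filter or with a filter over all 18 libraries (-1.29 and 1.10 in both). Median-ratio scaling ended the calls of GRHL2 (-1.26), NGFR (-0.97) and TCF7 (-0.99), and quantile normalization those of NGFR (-0.98) and NES (0.99). With 2 libraries per group and unknown read depth, small changes and genes near 1 TPM are measured least well.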

Other observations

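After the largest rises had been seen, ACTC1, ACTA1 and MYL4 among them, a list of 29 genes was written down, so its values are a description with no test. It held actin, myosin and actin-binding genes, and besides them SRF, ANKRD1 and NPPB. ANKRD1 and NPPB, like ACTC1, ACTA1 and MYL4, were among the 15 largest rises, and all of them are in the counts that follow. Of these genes 28 passed the filter, 17 were called higher and none lower (26 higher and none lower by adjusted p alone in limma), with a median change of 1.19 against -0.028 for all genes. MYL4 passed it through day 4 alone. TAGLN, an actin-bundling protein gene of smooth muscle, was at 273 and 275 TPM in pNE and 2300.5 and 2158 TPM in pNE_T. CNN1 (calponin) rose from 18.8 and 18.9 TPM to 298 and 258 TPM, ACTA2 (smooth muscle actin) from 53.5 and 61.3 TPM to 365 and 381 TPM, and MYL9, a myosin light chain gene, from 215 and 253 TPM to 994 and 1151 TPM. TPM2 (a tropomyosin) and CSRP1, a partner of serum response factor, rose by 1.60 and 3.53. ACTB, SRF, VCL and FLNA were not called, with changes of 0.58, 0.61, 0.51 and 0.58. In anterior cells 16 of the 28 were called higher in the same medium, and 5 had a larger change in posterior cells. These 5 were ACTA1, ACTC1, ANKRD1, NPPB and CNN1. All but CNN1 were already among the 15 largest posterior rises, so this count says little about the rest of the list. At day 4, 18 were higher in pNE_T than in pNE_M and 17 higher than in pNE_H. Promoter windows were found for 23 of the 28 (82.1%), and 10 of the 23 held a CArG box. These were ACTA1, ACTC1, ACTG1, ACTG2, CNN2, FLNA, MYL7, MYLK, SRF and TPM4. Of these, CNN2, FLNA, MYLK and SRF were not called, with changes of 0.43, 0.58, 0.13 and 0.61. The genes were picked by kind, so this count describes sequence only, and a role of serum response factor was not tested. Day and plating density changed with the medium from pNE to pNE_T here too, and their part was not tested. The comparisons with pNE_M and pNE_H were made at the same day and plating density.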
